A study of Mus musculus with 39 samples.

Results

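The 10 genes described here make, conjugate and move bile acids in the mouse liver, or control those steps: *Cyp7a1*, *Cyp8b1*, *Cyp27a1*, *Cyp7b1*, *Slc27a5*, *Baat*, *Abcb11*, *Slc10a1*, *Nr1h4* and *Nr0b2*. They were chosen by symbol for their known roles, with earlier results of these data known, from 45706 genes listed in the RNA-seq count files. Each symbol matched 1 gene identifier. Their levels were read in the 30 livers among 39 samples of a study on the response to glucocorticoids of livers without E47, an E-box-binding factor made from the gene *Tcf3*. The other 9 samples, fat and skeletal muscle, were not used here.

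All mice were young adult males of the C57BL/6 background on a chow diet. E47-/- mice (E47KO), which lack E47 in the whole body, were compared with E47+/+ littermates (WT) after no treatment (6 E47KO and 5 WT livers), after 3 weeks of corticosterone, the main glucocorticoid of rodents, at 100 µg/ml in the drinking water (Cort; 4 and 4), and after 3 weeks of dexamethasone, a synthetic glucocorticoid, at 10 µg/ml in the drinking water (Dex; 3 and 2). In the last experiment, Albcre/+;E47fl/fl mice (E47LKO), whose Cre recombinase is driven by the albumin promoter of hepatocytes, were compared with Alb+/+ floxed mice without Cre 1 h after an injection of Dex at 1 mg/kg (3 and 3). Among those floxed controls, replicate 1 was E47fl/+ and replicates 2 and 3 were E47fl/fl. Mice of the 3-week experiments were killed after a glucose tolerance test, which follows a fast. Mice of the 1 h experiment had free access to food. Treatment, feeding state, time of day and sequencing run therefore cannot be told apart when treated livers are set against untreated ones. The same holds for library type after 3 weeks of Cort or Dex. Untreated and 1 h libraries had 96.9 to 97.7% of counts on the strand with more counts, and Cort libraries 50.1%. The 3-week Dex files held no stranded counts. RNA extraction, on which the sources differ, may also have varied with treatment. The same 5 WT and 6 E47KO untreated livers served in every such comparison.

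The livers held 15.5 to 54.6 M gene-assigned counts each. Untreated livers had 30.9 to 39.0 M, Cort livers 37.8 to 54.6 M, livers after 3 weeks of Dex 17.5 to 21.4 M, and those of the 1 h experiment 15.5 to 18.1 M. Every member had at least 145 counts in every liver, so all 10 passed the filter on low counts in every fit. *Tcf3* lay between 6.12 and 19.3 counts per M counts of the library (CPM) and was called in no genotype comparison (lowest unadjusted p of edgeR's quasi-likelihood test 0.211), but a count over the whole gene does not separate E47 from the other splice form and checks no label. The summed level of hepatocyte genes was 87960 to 165614 CPM, and that of 8 bile duct markers was 24.8 to 100.0 CPM, with *Krt7*, *Krt19* and *Epcam* among them at up to 3.35 CPM. Under Cort 8 of 10 Kupffer cell and macrophage markers were called lower in WT livers and 7 in E47KO livers, with sums of 101 to 156 and 63.1 to 134 CPM against 147 to 399.8 and 164 to 280.2 CPM without treatment. Of 7 bile duct markers tested, 2 were called higher in WT Cort and 3 in E47KO Cort livers. The part of either cell type in the differences between Cort and untreated livers was not tested. *Fkbp5*, a gene induced by the glucocorticoid receptor, was at 18.2 to 106 CPM in untreated WT livers, 401 and 596 CPM in WT Dex livers and 115 to 169.5 CPM in the floxed controls. It was at 175 to 201 CPM in E47LKO livers, at 404, 351 and 78.3 CPM in E47KO Dex livers, at 60.4 to 505 CPM in WT Cort livers and at 52.8 to 430.3 CPM in E47KO Cort livers. Replicate 3 of E47KO Dex, replicate 1 of WT Cort and replicates 1 and 2 of E47KO Cort lay inside the untreated E47KO or WT range. Leaving out each of these in turn gave 3 called members in E47KO Dex, 3 in WT Cort and 2 in E47KO Cort, against 3, 3 and 3 with all livers. The summed level of 12 classical targets of the receptor, *Fkbp5* among them, was not higher in every treated group. It was 4425 to 7132 CPM in untreated WT livers and 2391 to 5687 CPM in WT Cort livers. In WT Dex livers it was 10182 and 12601 CPM, and in the floxed controls 9214 to 11127 CPM. *Tat* was at 3887 to 5106 CPM in the floxed controls, against 1311 to 2616 CPM in untreated WT livers. *Per1* was lower there, at 13.2 to 16.4 against 26.7 to 53.8 CPM. Replicate numbers are given in the order of the labels.

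Bile acids are made from cholesterol in hepatocytes, where they are the main route by which cholesterol leaves the body. The classic pathway begins with *Cyp7a1* and the alternative pathway with *Cyp27a1* and *Cyp7b1*, after which the products are joined to taurine, pumped into bile, and taken up again from portal blood. When bile acids accumulate, the nuclear receptor FXR (*Nr1h4*) binds them and induces the repressor SHP (*Nr0b2*), which lowers the synthesis genes, and induces the export pump *Abcb11*.

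The stretches of 250 bases before the annotated start are shown for 3 of the members that had one in RefSeq. *Abcb11* was the member with the largest rise over untreated livers 1 h after Dex. *Nr0b2* was the repressor called higher in E47KO Cort than in untreated E47KO livers. *Cyp8b1* was the member with the widest gap between genotypes after 3 weeks of Dex. Sequences are from RefSeq, build GRCm38.p6, written 5′ to 3′ on the strand of the gene. For *Abcb11* (chr2:69342617-69342866, minus strand) capitals mark a match to AGGNCA, any base and TGACCT, the inverted repeat to which FXR commonly binds. For *Nr0b2* (chr4:133553126-133553375, plus strand) they mark TCAAGG, the core recognised by the orphan receptor LRH-1 (*Nr5a2*). For *Cyp8b1* (chr9:121916306-121916555, minus strand) they mark CANNTG, the E-box letters that E47 and many related factors bind.
Abcb11: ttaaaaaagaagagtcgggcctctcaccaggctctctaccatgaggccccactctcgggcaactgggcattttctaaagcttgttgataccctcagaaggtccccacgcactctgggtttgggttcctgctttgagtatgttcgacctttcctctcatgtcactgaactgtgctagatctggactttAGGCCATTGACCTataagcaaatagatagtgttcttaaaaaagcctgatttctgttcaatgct
Nr0b2: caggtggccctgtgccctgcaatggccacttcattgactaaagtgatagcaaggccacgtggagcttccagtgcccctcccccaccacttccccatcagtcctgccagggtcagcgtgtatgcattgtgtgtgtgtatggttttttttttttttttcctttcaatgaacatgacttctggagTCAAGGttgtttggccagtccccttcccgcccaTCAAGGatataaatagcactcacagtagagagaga
Cyp8b1: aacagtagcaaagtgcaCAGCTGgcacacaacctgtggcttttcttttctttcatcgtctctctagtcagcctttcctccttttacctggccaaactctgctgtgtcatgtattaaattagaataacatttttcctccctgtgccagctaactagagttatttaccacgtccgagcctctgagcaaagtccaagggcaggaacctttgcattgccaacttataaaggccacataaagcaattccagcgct
The *Abcb11* match, AGGCCATTGACCT, began 63 bases before the start, and such a match lay in 11 of 32851 RefSeq promoter stretches of this length (0.0335%, both strands searched). TCAAGG lay 68 and 35 bases before the start of *Nr0b2* and in 12.5% of all stretches, and CANNTG, here CAGCTG at 233 bases before the start of *Cyp8b1*, lay in 66.2%, so the E-box letters set no member apart. AGAACA, the core of a glucocorticoid response element, was in 16.1% of all stretches and occurred 1 time before *Abcb11*. CANNTG also occurred 1 time each before *Abcb11*, *Cyp27a1* and *Nr1h4* and 2 times before *Nr0b2*, and was absent before *Slc10a1*. RefSeq stretches were matched for 6 of the 10 members, and not for *Cyp7a1*, *Cyp7b1*, *Slc27a5* and *Baat*. These are matches of letters and not measured binding.

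Loss of E47 moved none of the 10 bile acid genes past the threshold in any of the 4 genotype comparisons, whereas the treated livers differed from the untreated ones at several of them. The widest difference was at *Cyp7b1*, an oxysterol hydroxylase of the alternative pathway, whose log2 fold change after 3 weeks of Cort was -3.26 in WT livers and -2.44 in E47KO livers. The uptake transporter *Slc10a1* and the mitochondrial hydroxylase *Cyp27a1* were also lower in WT Cort livers. *Abcb11*, the bile salt export pump, was 2.05-fold higher in floxed control livers 1 h after Dex than in untreated WT livers. In livers as a whole, fewer cells of a type and less RNA per cell cannot be told apart.

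A gene was called when its adjusted p, from edgeR's quasi-likelihood test over all genes, was under 0.05. In WT Cort livers 3 of 10 members were lower and none higher, where 16.1% of all 16227 genes tested were lower and 17% higher. In E47KO Cort livers 1 was higher (21% of all genes) and 2 were lower (18%). After 3 weeks of Dex 3 members were lower and none higher both in WT livers (16.3% of all genes lower, 15.6% higher) and in E47KO livers (18.4% and 19.4%). These Dex counts were 1 and 0 when only the Dex and untreated livers of a genotype were fitted. At 1 h after Dex 1 was higher (10% of all genes) and 2 were lower (10.4%). With 10 members these counts are near the shares of all genes, and they set the members apart in no comparison. The median log2 fold change of the members, from -0.44 in WT Dex livers to -0.06 in WT Cort livers, lay beside medians of all genes between -0.04 and 0.01. Treated and untreated livers did not overlap at 1 member in WT Cort, 2 in E47KO Cort, 4 in WT Dex, 1 in E47KO Dex and 3 at 1 h, where the shares of all genes were 23.8%, 25.9%, 41.5%, 32.1% and 22.1%.

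**Figure D1:**
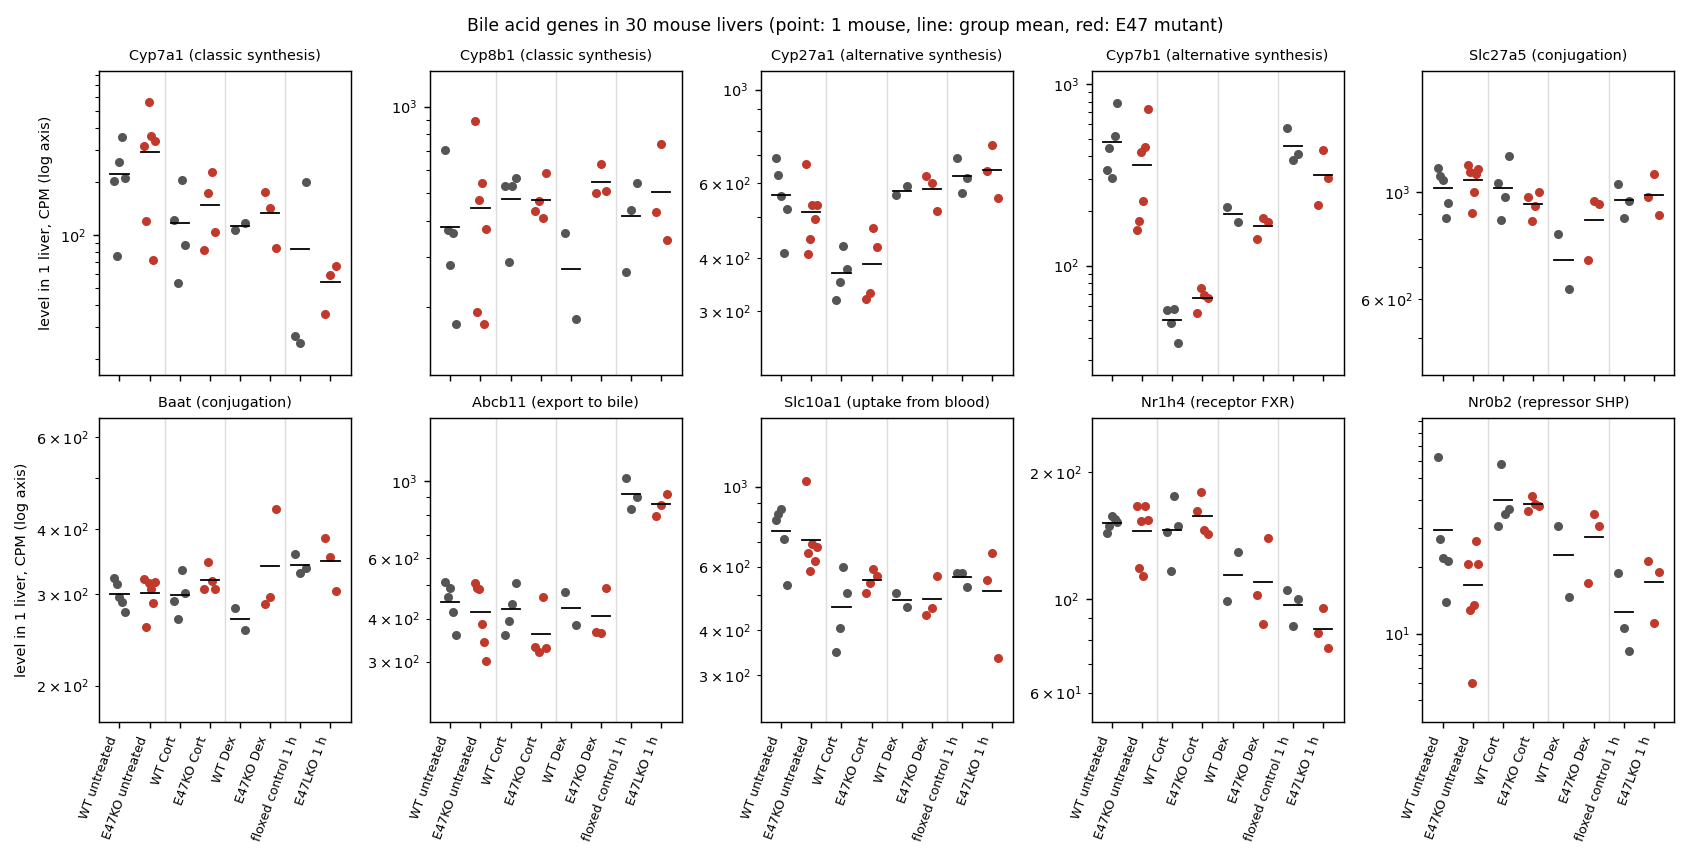
Level of each bile acid gene in CPM (log axis) in 30 livers, by group; each point is 1 mouse, the line is the group mean and red marks E47 mutants. *Cyp7b1* in all 8 Cort livers, from 37.6 to 74.9 CPM, lies below every other liver, and *Abcb11* in all 6 livers of the 1 h experiment, from 795 to 1019 CPM, lies above every other liver.

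The classic pathway genes varied widely among mice of the same group. *Cyp7a1*, the rate-limiting enzyme of the classic pathway (chr4:6265612-6275633 of mm10, minus strand), was at 202, 75.7, 259, 359 and 208 CPM in the 5 untreated WT livers. In untreated E47KO livers it ranged from 72.1 to 564 with a median of 327 CPM, so that the genotypes overlapped over nearly their whole range. It was at 121, 53.2, 204 and 87.3 CPM in WT Cort livers, and at 107 and 116 CPM in WT Dex livers. Most treated WT livers thus sat in the lower part of the untreated range, and WT Cort replicate 2 lay below it. In E47KO livers it was at 82.1, 173, 227 and 104 CPM under Cort and at 175, 141 and 84.5 CPM under Dex, all inside the untreated range. The fitted differences from untreated livers were -0.92 ± 0.57 (log2 fold change ± SE; adjusted p = 0.216 by edgeR) in WT Cort, -1.01 ± 0.55 (0.154) in E47KO Cort, -0.99 ± 0.74 (0.319) in WT Dex and -1.14 ± 0.62 (0.152) in E47KO Dex, and none passed the threshold.

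At 1 h after Dex, *Cyp7a1* stood at 26.8 and 24.4 CPM in the first pair of floxed controls and at 198 CPM in replicate 3. The E47LKO livers, at 35.6, 59.5 and 66.6 CPM, lay between these values. The difference of floxed controls from untreated WT was -1.41 ± 0.64 (adjusted p = 0.124 by edgeR), and without floxed control replicate 3 it was -3.11 with an adjusted p of 0.00452. The same liver decides the direction of the genotype difference, which was -0.62 ± 0.74 with it and 1.09 without it.

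*Cyp8b1*, the sterol hydroxylase that directs synthesis towards cholic acid (chr9:121914356-121916305, minus strand), was at 709, 372, 281, 362 and 174 CPM in untreated WT livers and between 175 and 890.3 CPM in untreated E47KO livers (median 424). After 3 weeks of Dex it was at 362 and 181 CPM in the WT livers and at 499.5, 633 and 509 CPM in the E47KO livers, so the genotypes did not overlap. All 5 of these values fell inside the range of the untreated livers. The difference of E47KO from WT was 1.01 ± 0.31 (95% interval 0.27 to 1.75), with an unadjusted p of 0.0147 and an adjusted p of 0.999 by edgeR over 13300 genes. Under Cort the WT livers, at 531, 287, 528 and 563 CPM, and the E47KO livers, at 431, 468, 409 and 589 CPM, overlapped. With the same contrast in Cort livers at -0.02 ± 0.21 and in untreated livers at 0.22 ± 0.43, the difference between the Dex and the Cort genotype effects was 1.02 ± 0.68 (unadjusted p = 0.145, edgeR). No treatment difference of *Cyp8b1* passed the threshold, the largest being -0.48 ± 0.50 in WT Dex livers (adjusted p = 0.486). Genes of the daily clock were also read between the E47KO and WT Dex livers. Of 15 tested, 0 were called and 6 had an unadjusted p under 0.05 by edgeR (3.08% of all genes). The 2 genotypes did not overlap at 9 of them (15% of all genes). The part of time of day in the *Cyp8b1* gap under Dex was not tested.

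Both members of the alternative pathway were called lower after 3 weeks of Cort. *Cyp7b1* (chr3:18071950-18243338, minus strand) was at 336, 447, 306, 521 and 792 CPM in untreated WT livers, and at 56.7, 48.3, 57.4 and 37.6 CPM in WT Cort livers. In E47KO livers it went from a range of 157 to 726 CPM without treatment (median 323) to 54.7, 74.9, 68.7 and 66.2 CPM under Cort. Treated and untreated livers did not overlap in either genotype, and the log2 fold changes were -3.26 ± 0.37 in WT (adjusted p = 7.79e-07) and -2.44 ± 0.35 in E47KO (adjusted p = 8.94e-06, both by edgeR). Among the Cort livers themselves *Cyp7b1* was 0.39 ± 0.15 higher in E47KO (95% interval 0.06 to 0.72), with overlapping livers, an unadjusted p of 0.0262 and an adjusted p of 0.429. The difference between the Cort responses of the genotypes was 0.82 ± 0.46 (unadjusted p = 0.0874, edgeR). *Cyp7b1* overlaps the small gene *Gm23686* on the same strand, and reads of the pair cannot be separated.

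After 3 weeks of Dex *Cyp7b1* was at 211 and 174 CPM in WT and at 141, 183 and 174 CPM in E47KO livers. This placed the Dex livers between the Cort and the untreated WT livers. The E47KO Dex livers overlapped untreated E47KO livers, of which replicates 1 and 2 were at 157 and 176 CPM. The log2 fold changes from untreated livers were -1.32 ± 0.45 in WT (adjusted p = 0.0253) and -1.12 ± 0.37 in E47KO (adjusted p = 0.0184, edgeR). Both calls depended on single livers. In WT the adjusted p was 0.0912 and 0.187 without Dex replicate 1 or 2 and 0.0581 without untreated replicate 5, and in E47KO it was 0.0881 without Dex replicate 1 and 0.0588 without untreated replicate 6. At 1 h after Dex the floxed controls, at 574, 384 and 411 CPM, lay within the untreated range (-0.07 ± 0.36). The E47LKO livers, at 214.9, 433 and 303 CPM, overlapped them (-0.52 ± 0.25, unadjusted p = 0.0679 by edgeR).

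*Cyp7b1* is a male-biased gene in mouse liver, and its level was therefore read beside 15 other male-biased genes. Their summed level was 11308 to 16948 CPM in untreated WT livers and 3583 to 9948 CPM in WT Cort livers, and 8000.0 to 18919 and 5559 to 7785 CPM in the E47KO groups. Under Cort 14 of the 15 were called lower in WT (median log2 fold change -2.05) and 11 in E47KO (-1.43), while 11 and 6 of 15 tested female-biased genes were called higher, and 0 and 1 lower. After Dex the male-biased sum stayed at 14798 and 20156 CPM in WT and 13084 to 16518 CPM in E47KO livers, with 7 genes lower and 2 higher in WT and 6 lower and 2 higher in E47KO. The female-biased sum was 573 and 773 CPM in WT Dex livers against 35.5 to 85.6 CPM without treatment, and 385 to 593 CPM in E47KO Dex livers, with 6 and 7 of 15 female-biased genes called higher and 0 and 1 lower. Within groups, deviations of *Cyp7b1* and of the male-biased sum had a Pearson r of 0.66 over 30 livers, which share library depth and batch, and the female-biased sum had an r of -0.45. Whether this shift accounts for the level of *Cyp7b1* was not tested. Replicate 2 of the untreated E47KO livers had a female-biased sum of 597 CPM against 48.3 to 70.6 in the others of its group, and its *Cyp7b1* level was 176 CPM.

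**Figure D2:**
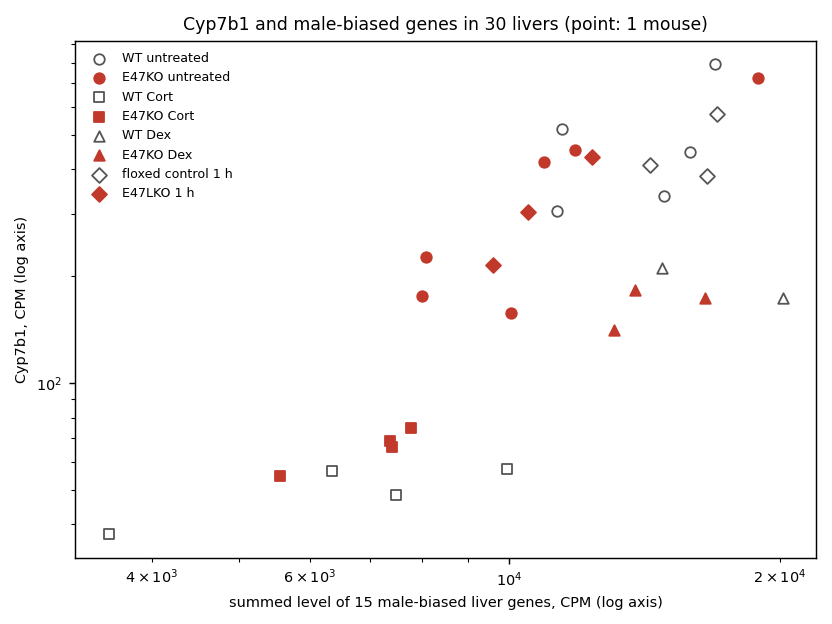
*Cyp7b1* in CPM against the summed level of 15 male-biased liver genes in CPM (both log axes), 1 point per mouse; shape marks treatment and filled red points are E47 mutants. The 8 Cort livers lie at the lower left, at 37.6 to 74.9 CPM of *Cyp7b1*, and the 5 livers of the 3-week Dex experiment have low *Cyp7b1*, from 141 to 211 CPM, at sums of 13084 to 20156 CPM.

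*Cyp27a1*, the mitochondrial enzyme that opens the alternative pathway by oxidising the cholesterol side chain (chr1:74713574-74737892, plus strand), was at 691, 627, 562, 410.0 and 521 CPM in untreated WT livers and at 318, 351, 428 and 376 CPM in WT Cort livers. Untreated replicate 4 overlapped the Cort livers. The log2 fold change was -0.61 ± 0.15 (adjusted p = 0.00330, edgeR). In E47KO livers it was at 320.2, 330.4, 469.6 and 425 CPM under Cort, against 408 to 666 CPM without treatment (median 514), a log2 fold change of -0.41 ± 0.15 (adjusted p = 0.0280). The E47KO call was lost without Cort replicate 1 (adjusted p = 0.111) or 2 (0.104) or untreated replicate 1 (0.0719). *Cyp27a1* was called in no Dex comparison, with log2 fold changes of 0.04 ± 0.19, 0.18 ± 0.16 and 0.16 ± 0.16 in WT, E47KO and floxed control livers.

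Of the conjugation enzymes, *Slc27a5*, the bile acid-CoA ligase that activates bile acids (chr7:12988346-12998192, minus strand), and *Baat*, which joins the activated acid to taurine (chr4:49489422-49506557, minus strand), varied least. *Slc27a5* lay between 882 and 1119.5 CPM in untreated WT livers (median 1059) and at 818 and 629 CPM in WT Dex livers, which did not overlap. The log2 fold change was -0.49 ± 0.14 (adjusted p = 0.0105, edgeR), and without WT Dex replicate 2 the adjusted p was 0.254. In E47KO Dex livers it was at 725, 958 and 944 CPM, against 903 to 1137 CPM without treatment (-0.27 ± 0.12, adjusted p = 0.0774, and 0.0467 without untreated replicate 3). Under Cort its log2 fold changes were 0.00 ± 0.11 in WT and -0.16 ± 0.11 in E47KO livers.

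*Baat* lay between 277 and 322 CPM in untreated WT livers and between 259 and 320.0 CPM in untreated E47KO livers. It was called in no comparison, with log2 fold changes against untreated livers from -0.16 ± 0.13 in WT Dex to 0.19 ± 0.11 at 1 h. The E47KO Dex livers, at 286, 296 and 436 CPM, did not overlap the WT Dex livers at 282 and 256 CPM (0.33 ± 0.21, unadjusted p = 0.165 by edgeR), where replicate 3 alone was far from the rest.

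Among the transporters, *Abcb11*, which pumps conjugated bile acids into the canaliculus (chr2:69238282-69342616, minus strand), separated the 1 h livers from all others. It was at 509, 463, 490.1, 419 and 358 CPM in untreated WT livers and at 1019, 832 and 903 CPM in the floxed controls 1 h after Dex. The log2 fold change was 1.04 ± 0.17 (2.05-fold, adjusted p = 8.70e-05 by edgeR). The E47LKO livers, at 795, 854 and 921 CPM, were also above every untreated liver, and the genotypes differed by -0.09 ± 0.11 (95% interval -0.34 to 0.16). After 3 weeks of either glucocorticoid *Abcb11* was called in neither genotype, at 358, 394, 442 and 507 CPM in WT Cort, 477 and 383 CPM in WT Dex, 331, 320.2, 461 and 329 CPM in E47KO Cort and 367, 364 and 491 CPM in E47KO Dex livers. These log2 fold changes lay between -0.22 ± 0.15 and -0.04 ± 0.16. *Abcb11* overlaps *Gm13613* and *Gm13614* on the opposite strand, and the 1 h call was also made on counts of the gene's own strand.

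The 1 h livers also differed from the untreated ones in the genes of the daily clock, of which 10 of 15 were called lower and 4 higher. *Dbp*, a clock output gene with a strong daily rhythm, was at 0.124, 0.0596 and 0.116 CPM in the floxed controls and at 24.2 to 112 CPM in untreated WT livers. *Arntl*, a core activator of the clock that peaks at the opposite time, was at 28.5 to 29.6 CPM in the floxed controls against 0.654 to 4.8 CPM. Over both genotypes, *Arntl* was at 16.5 to 33.8 CPM in 3-week Dex, 1.84 to 12.4 in Cort and 0.540 to 5.90 in untreated livers. *Dbp* was at 1.33 to 14.6, 9.19 to 60.9 and 19.2 to 112 CPM in these livers. The part of time of day in the 3-week differences was not tested. The part of time of day in the *Abcb11* difference was not tested and, since all 1 h livers carry it, cannot be told apart from that of Dex. Markers of other cells differed as well. At 1 h 5 of 8 stellate cell and fibroblast markers were called higher and 0 lower, with sums of 194 to 436 CPM in the floxed controls and 167 to 238 CPM in untreated WT livers. Of 7 bile duct markers tested 3 were called higher and 0 lower, with sums of 41.6 to 100.0 against 34.3 to 71.1 CPM. Their part in the 1 h differences was not tested.

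*Slc10a1*, the sodium-dependent transporter NTCP that takes up bile acids from blood (chr12:80953183-80968705, minus strand), was at 806, 837, 868, 714 and 532 CPM in untreated WT livers. It was at 347, 405, 598 and 506 CPM in WT Cort and at 507 and 464 CPM in WT Dex livers. The Cort livers overlapped only the lowest untreated liver, replicate 5, and the Dex livers lay below all of them. The log2 fold changes were -0.70 ± 0.18 in Cort (adjusted p = 0.00521) and -0.63 ± 0.23 in Dex (adjusted p = 0.0412, edgeR). In E47KO livers it ranged from 584 to 1035 CPM without treatment (median 668), and was at 441, 461 and 563 CPM under Dex (-0.54 ± 0.20, adjusted p = 0.0304) and at 506, 540.2, 589.9 and 564 CPM under Cort (-0.37 ± 0.18, adjusted p = 0.0970).

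Both Dex calls of *Slc10a1* were lost without a single liver. In WT the adjusted p was 0.120 and 0.230 without Dex replicate 1 or 2, and 0.0640, 0.0686 and 0.0718 without untreated replicate 1, 2 or 3. In E47KO it was 0.131 and 0.102 without Dex replicate 1 or 2, and 0.0768 without untreated replicate 1. At 1 h the floxed controls, at 577, 576 and 526 CPM, gave -0.43 ± 0.20 (adjusted p = 0.136, edgeR).

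The receptor *Nr1h4* (chr10:89454234-89533585, minus strand) was the steadiest member in untreated WT livers, at 143, 149, 158, 154 and 152 CPM. It was at 105, 86.2 and 99.9 CPM in the floxed controls 1 h after Dex, below every untreated WT liver, with a log2 fold change of -0.64 ± 0.15 (adjusted p = 0.00411, edgeR), and at 82.9, 95.1 and 76.7 CPM in the E47LKO livers. After 3 weeks of Dex it was at 99.1 and 129 CPM in WT (-0.41 ± 0.18, adjusted p = 0.0794) and at 102, 87.0 and 139.7 CPM in E47KO livers (-0.41 ± 0.15, adjusted p = 0.0324), where untreated livers held 113 to 166 CPM. The E47KO call was lost without Dex replicate 1 (adjusted p = 0.134) or 2 (0.229), or without untreated replicate 1 (0.0588), 3 (0.0519), 5 (0.0628) or 6 (0.0616). Under Cort *Nr1h4* gave log2 fold changes of -0.05 ± 0.14 in WT and 0.12 ± 0.13 in E47KO livers, and was called in neither.

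*Nr0b2*, the repressor SHP (chr4:133553376-133556536, plus strand), was at 62.3, 26.5, 22.0, 13.8 and 21.1 CPM in untreated WT livers and at 30.5, 57.9, 34.4 and 36.2 CPM in WT Cort livers, a log2 fold change of 0.45 ± 0.37 (adjusted p = 0.368). Every WT Cort liver lay above untreated WT replicates 2 to 5, and only untreated replicate 1, at 62.3 CPM, made these groups overlap. In E47KO livers it ranged from 6.01 to 26.0 CPM without treatment (median 17) and was at 35.5, 41.7, 38.3 and 37.5 CPM under Cort, without overlap. This rise was 1.21 ± 0.36 on the log2 scale, or 2.31-fold (adjusted p = 0.00896, edgeR). Among Cort livers the genotypes differed by -0.07 ± 0.18, and among untreated ones by -0.82 ± 0.40 (E47KO against WT, 95% interval -1.68 to 0.05, unadjusted p = 0.0618, adjusted p = 0.965). The difference between the Cort responses of the genotypes was 0.76 ± 0.52 (unadjusted p = 0.155), so they were not shown to differ.

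In Dex livers *Nr0b2* was at 30.4 and 14.6 CPM in WT and at 16.8, 34.5 and 30.5 CPM in E47KO, with log2 fold changes of -0.37 ± 0.48 and 0.72 ± 0.39 that did not pass the threshold. At 1 h it was at 18.7, 10.6 and 8.38 CPM in the floxed controls (-1.22 ± 0.44, adjusted p = 0.0489 by edgeR). Untreated WT replicate 1, at 62.3 CPM, weighed on this value. Without it the log2 fold change was -0.73 and the adjusted p 0.192, and the call was also lost without untreated replicate 2 (0.0643) or floxed control replicate 2 (0.166) or 3 (0.208).

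**Figure D3:**
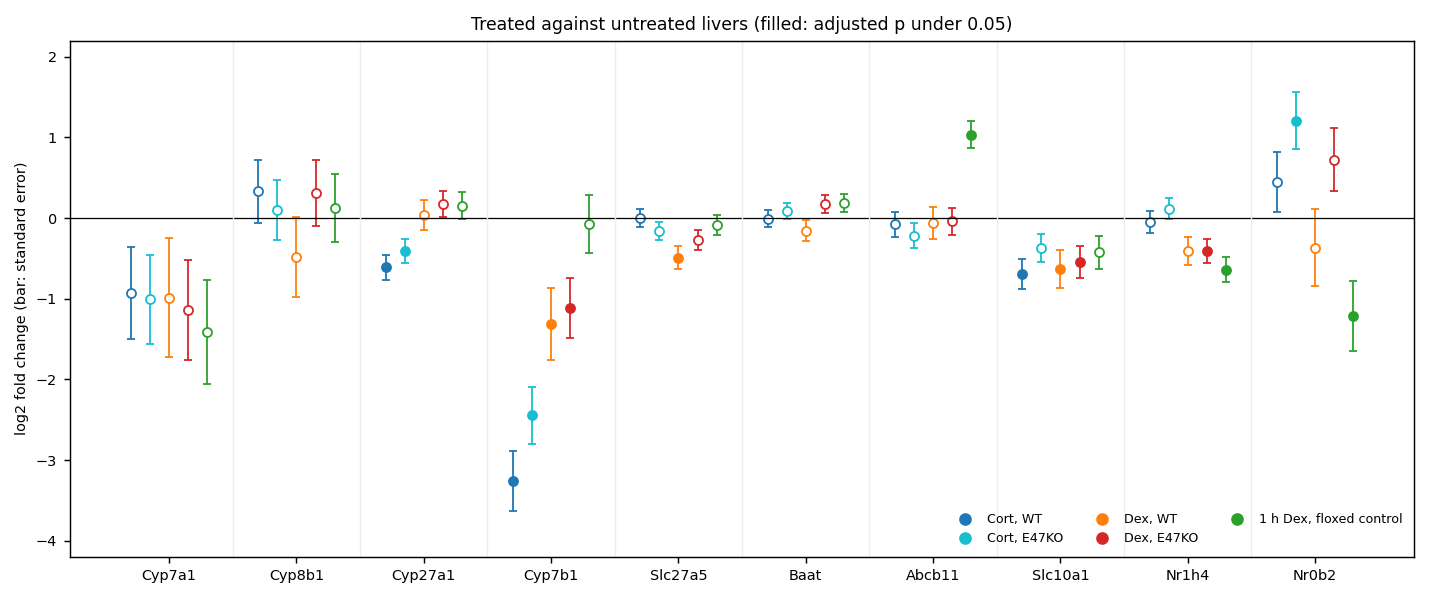
Log2 fold change of each bile acid gene in treated against untreated livers of the same genotype, and in floxed controls 1 h after Dex against untreated WT livers; bars are standard errors and filled points passed an adjusted p of 0.05 (edgeR). *Cyp7b1* under Cort, at -3.26 in WT and -2.44 in E47KO, lies lowest, and *Nr0b2* in E47KO Cort (1.21) and *Abcb11* at 1 h (1.04) are the filled points above zero.

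Between genotypes, 0 of 10 members were called by edgeR in each comparison, and DESeq2 also called 0. The shares of all genes called were 0.00752% of 13300 genes under Dex, 0.0274% of 14588 under Cort, 0.0288% of 13904 without treatment and 0% of 12601 at 1 h, so that few genes of any kind passed this test, though other settings passed more under Cort (29 genes with a replicate block, 67 with the number range of the animals as a covariate and 258 by DESeq2). At an unadjusted p under 0.05 there was 1 member under Dex (*Cyp8b1*; 3.08% of all genes), 1 under Cort (*Cyp7b1*; 9.84%), 0 without treatment (3.63%) and 0 at 1 h (3.7%). Mutant and control livers did not overlap at 2 members under Dex (*Cyp8b1* and *Baat*), against 15% of all genes, and at 0 in the other comparisons, against 6.48%, 0.424% and 8.29%. Without treatment the 95% intervals of the steady members were narrow. For *Slc27a5* the interval ran from -0.18 to 0.28 and for *Baat* from -0.19 to 0.20. Under 3 weeks of Dex they were wider, from -0.22 to 0.77 and from -0.18 to 0.84. For *Cyp7a1* the interval ran from -0.62 to 1.46 without treatment and from -2.33 to 1.09 at 1 h. A large rise was thus not excluded without treatment, nor a large difference in either direction at 1 h. The tests of whether the genotype effect differed between treatments called 0 of 10 members in any of the 3 pairs, where 0.00616% of all genes were called in each. At an unadjusted p under 0.05 they also held 0 members, against 6.89% of all genes for Cort and untreated, 4.14% for Dex and untreated and 2.95% for Dex and Cort. DESeq2 called 0 members there.

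**Figure D4:**
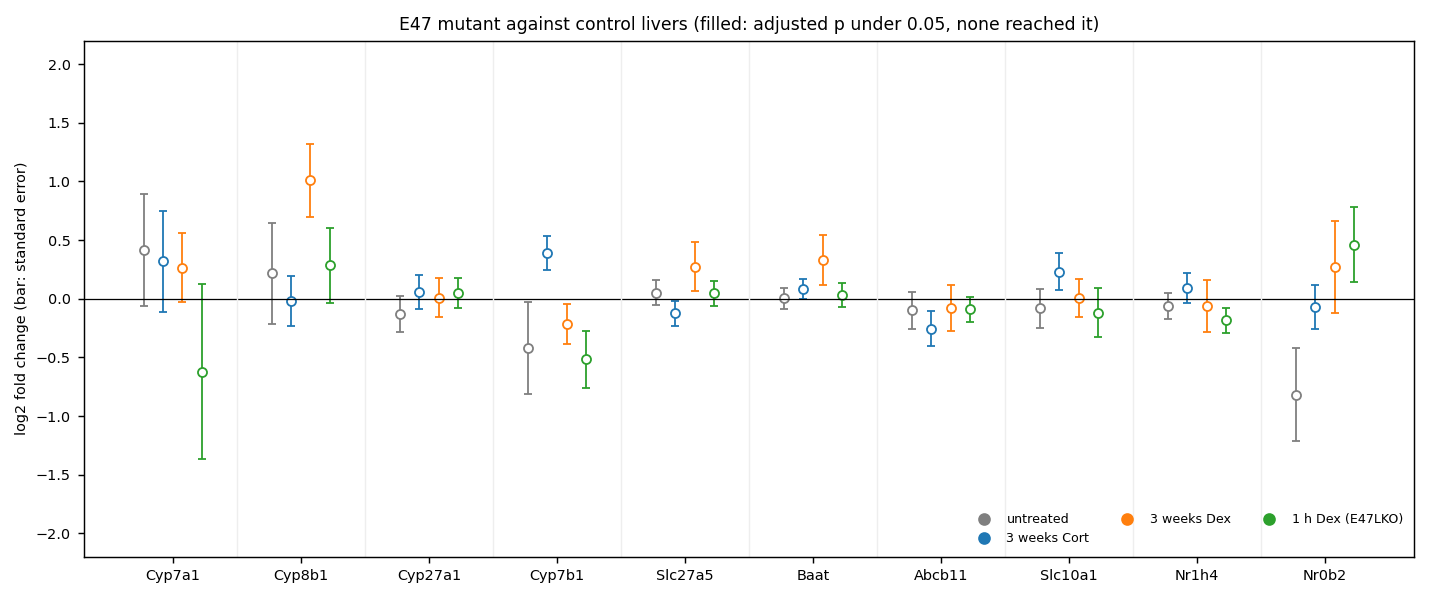
Log2 fold change of each bile acid gene in E47 mutant against control livers within each experiment, with standard errors; open points did not pass an adjusted p of 0.05 (edgeR), and none passed. *Cyp8b1* under 3 weeks of Dex is the highest point (1.01) and *Nr0b2* without treatment the lowest (-0.82). Among *Slc27a5*, *Baat*, *Cyp27a1*, *Abcb11*, *Slc10a1* and *Nr1h4*, the point farthest from zero is *Baat* under 3 weeks of Dex (0.33).

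Another 45 genes of bile acid metabolism were read alongside, of which 43 were tested. In WT Cort livers 12 were higher (17% of all genes) and 7 lower (16.1%), and in E47KO Cort livers 13 were higher (21%) and 6 lower (18%). In WT Dex livers 7 were higher (15.6% of all genes) and 7 lower (16.3%), and in E47KO Dex livers 13 were higher (19.4%) and 6 lower (18.4%). At 1 h 4 were higher (10%) and 8 lower (10.4%). None was called between genotypes by edgeR. At an unadjusted p under 0.05 there were 2 of 42 under Dex (3.08% of all genes), 7 of 41 under Cort (9.84%), 1 of 41 without treatment (3.63%) and 6 of 41 at 1 h (3.7%).

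Of 16 further enzymes, *Cyp39a1*, a hydroxylase of oxysterols like *Cyp7b1*, was at 18.4 ± 6.06 CPM in untreated WT livers (SD, n = 5) and at 93.0 ± 19.0 CPM in WT Cort (n = 4) and 366 ± 109 CPM in WT Dex livers (n = 2). It rose by 2.34 ± 0.27 under Cort and 4.31 ± 0.31 under Dex in WT livers, and by 1.65 ± 0.25 and 3.65 ± 0.27 in E47KO livers (largest adjusted p = 1.46e-05, edgeR). *Cyp39a1* and *Cyp7b1* thus moved in opposite directions under both glucocorticoids. *Cyp2c70*, which makes the muricholic acids of mice, was at 519 ± 97.4 CPM in untreated WT livers and at 129 ± 36.4 CPM under Cort, a log2 fold change of -2.00 ± 0.30. It was -1.46 ± 0.39 in WT Dex livers and 1.00 ± 0.30 higher at 1 h (adjusted p = 0.00505 and 0.0210). *Acnat2*, an acyl transferase related to *Baat*, was higher under Cort by 3.41 ± 0.59 in WT and 2.49 ± 0.54 in E47KO, and under Dex by 3.86 ± 0.66 and 3.49 ± 0.58. *Akr1c6* was lower in Dex livers by log2 fold changes of -1.99 ± 0.30 and -1.67 ± 0.25.

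Of 15 further transporters, 14 of them tested, the uptake carrier *Slco1a1* was lower under Cort in WT (-2.23 ± 0.26, adjusted p = 7.79e-07) and in E47KO livers (-1.36 ± 0.24, adjusted p = 9.48e-05). *Slco1a1* is also 1 of the 15 male-biased genes. *Abcb4*, which exports phospholipid into bile, was higher under Dex, by 0.90 ± 0.14 and 0.92 ± 0.12. *Abcg5*, part of the sterol exporter of the canaliculus, was lower at 1 h (-1.15 ± 0.23, adjusted p = 0.000912 by edgeR), whereas *Abcb11*, a pump of the same membrane, was higher.

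Of 14 regulators, 13 of them tested, *Ppargc1a*, a coactivator induced by fasting, was higher under Dex by 2.59 ± 0.26 and 1.88 ± 0.22 (adjusted p = 4.82e-08 and 4.06e-07). *Nr1i3*, the receptor CAR, was lower at 1 h (-1.23 ± 0.25, adjusted p = 0.000940). *Fgf15*, the intestinal hormone that signals to *Cyp7a1*, had 0 counts in all 30 livers.

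Per kb of exon, the members spanned a wide range in untreated WT livers (mean ± SD of CPM per kb, n = 5). *Slc27a5* was the highest at 418 ± 40.5, followed by *Slc10a1* at 342 ± 61.6, *Cyp27a1* at 259 ± 49.1, *Cyp7b1* at 222 ± 89.7 and *Cyp8b1* at 195 ± 103. Next came *Baat* at 154 ± 9.33, *Abcb11* at 87.0 ± 11.8, *Nr1h4* at 65.7 ± 2.38, *Cyp7a1* at 52.9 ± 24.6 and *Nr0b2* at 25.7 ± 16.9. From *Cyp27a1* to *Baat*, and again from *Nr1h4* to *Cyp7a1*, neighbours in this order differed by less than the larger of their SDs.

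The members differed widely in their spread among livers of the same group. The SD of log2 levels within groups was 0.92 for *Cyp7a1*, 0.63 for *Cyp8b1*, 0.55 for *Nr0b2* and 0.53 for *Cyp7b1*, at the 99.3, 97.9, 96.7 and 96.3 percentile of 7466 genes with a mean of at least 10 CPM. *Slc27a5* and *Baat* had an SD of 0.15 each, at the 33.7 and 28.4 percentile. Within groups the 45 pairs of members had Pearson r values from -0.50 (*Cyp7b1* with *Abcb11*) to 0.60 (*Cyp27a1* with *Slc10a1*), with a median of 0.18 over 30 livers, which share depth and batch within a group. *Cyp7a1* and *Nr0b2* had an r of -0.47, and *Cyp7a1* and *Cyp8b1* an r of 0.44.

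The genes most like a member in these deviations, among 16161 compared over the 30 livers, differed between the pathway's enzymes. For *Cyp8b1* they were *Hmgcs1* (r = 0.88), *Ackr2* (0.86), *Cmbl* (0.83), *Abhd4* (0.83) and *Acss2* (0.82), where *Hmgcs1* is a cholesterol synthesis enzyme and *Acss2* makes acetyl-CoA. For *Cyp7b1* they were *Ginm1* (0.91), *Qsox1* (0.84), *Mup18* (0.83), *Mup8* (0.82) and *Orm1* (0.80), of which the *Mup* genes are near-identical copies whose reads are uncertain. For *Cyp7a1* the highest values were lower, at 0.73 for *Gm13461* and 0.72 for *Gm16291*.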

How the data were processed

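RNA-seq was read in 30 livers of 8 groups, taken from the labels. Per the submitters' processing notes the authors aligned reads to mm10 with STAR 2.4.2a, and the notes also name HTSeq and DESeq2. The deposited per-sample files hold raw counts per gene, for unstranded and, except in the 3-week Dex libraries, stranded counting. Entries that name no gene (20.8 to 36.8% of a library) were left out. The unstranded column was used throughout, since the Cort libraries had about equal strands. Their strand with more counts held 50.1% of stranded counts, against 96.9 to 97.7% in the other stranded livers.

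Counts were tested with edgeR 4.0.16 (TMM, filterByExpr, quasi-likelihood, two-sided, Benjamini-Hochberg over all genes tested, threshold 0.05) in R 4.3.3. Genotype comparisons used the 2 groups alone. Treatment comparisons and interactions used 1 fit over all 30 livers. Intervals (95%) use the t distribution with the total degrees of freedom of each edgeR fit, residual plus prior. These were 6.69 for genotype under 3 weeks of Dex and 26.2 in the fit over all livers. Each SE was recovered from the log2 fold change and the F statistic. CPM and fold changes were computed here, and log2 levels within groups had 2 added to CPM. The test was checked on simulated data. All 47 replicate pairs differed by more than counting noise (15.9 to 250.3 times its variance). RNA extraction was read as Qiazol for the 3-week and RNeasy for the 1 h livers. The paper instead names an RNeasy kit for liver, and Qiazol followed by RNeasy for muscle and fat. This difference was not resolved. For untreated livers no separate statement was found in the sources used here. P-values cover the spread between mice within groups, pooled for each gene over the groups of the fit. For treatment comparisons and interactions these were all 8 groups, whose spreads differed. For *Cyp7b1* the SD was 12.8% of the mean in E47KO Cort and 60.7% in untreated E47KO livers.

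The members and lists were chosen with earlier results of these data known. Named genes were all 10 members and, in each other list and comparison, at most 5 called genes, those of lowest adjusted p. Alternatives were other size factors, no filter, DESeq2 1.42.0, the strand column, fits over other groups, the replicate number as a block, the number range of the animals (from their identifiers) as a covariate, and leaving out each liver. Fat and muscle samples were not used here.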

Additional observations from a re-analysis of the deposited data

Results flagged for a closer look

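Of 40 groups of 4 to 6 livers examined for the members, 4 held a liver whose gap to its nearest neighbour was wide for the range of its group, by Dixon's criterion, which chance alone gives in about 1 in 20 groups. *Cyp8b1* was at 287 CPM in WT Cort replicate 2, with the nearest liver at 528 CPM. *Abcb11* was at 461 CPM in E47KO Cort replicate 3, with the nearest at 331 CPM. *Slc10a1* was at 1035 CPM in untreated E47KO replicate 1, with the nearest at 691 CPM. *Nr0b2* was at 62.3 CPM in untreated WT replicate 1, with the nearest at 26.5 CPM.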

How the results depend on the processing

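Of 38 differences with a stated size (unadjusted p under 0.05, groups apart, or at least 0.5 on the log2 scale), refitted 590 times in all, 40 refits lost the call, 4 gained one, 2 changed sign, and the others kept direction and side of the threshold. The number of members called in WT Dex livers went from 3 to 1 when only the groups of the contrast were fitted, and ran from 0 to 3 when 1 liver was left out, where a lone WT Dex liver was assumed to vary like the other groups. In E47KO Dex livers it went from 3 to 0 with only the groups of the contrast and to 1 with a replicate block, and ran from 0 to 3 over omitted livers. Over omitted livers it ran from 3 to 4 in WT Cort, 2 to 3 in E47KO Cort and 2 to 3 at 1 h, and was 0 in every genotype comparison and interaction. The *Cyp7a1* difference of E47LKO from floxed controls was 0.028 with a replicate block, and ran from -1.06 to 1.09 over omitted livers. Replicate numbers were not shown to pair the mice in every comparison. Correlations of deviations between genotypes at the same number ran from 0.081 to 0.82 in untreated livers and from 0.070 to 0.71 under Cort. They ran from -0.52 to -0.056 under Dex and from -0.019 to 0.22 at 1 h. In untreated livers of both genotypes *Arntl* was lowest in replicates 1 and 2 and highest in replicate 5. *Dbp* was highest in replicates 1 and 2 and lowest in replicate 5. The part of this order in the results was not tested. The block left the member counts at 3 in WT Cort, 3 in E47KO Cort and 3 in WT Dex. It gave 4 at 1 h. The cause of these shifts was not tested.

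Calls that held under every alternative were *Cyp7b1* under Cort (-3.39 to -3.01 in WT and -2.60 to -1.86 in E47KO), *Cyp27a1* and *Slc10a1* in WT Cort, *Nr0b2* in E47KO Cort, and *Abcb11* (0.94 to 1.10) and *Nr1h4* at 1 h. The *Slc10a1* call in E47KO Cort was gained with the strand column (adjusted p = 0.0414), a refit that sets Cort libraries with about equal strands against stranded untreated ones. Another 82 small differences are stated only as sizes, and 39 of them changed sign under some alternative, the largest at 0.37. Over all genes, DESeq2 called 25, 258, 20 and 4 genes between genotypes under Dex, Cort, no treatment and 1 h, against 1, 4, 4 and 0 by edgeR, and the number range as a covariate gave 0, 67 and 4 in the first 3, and 466 genes had an unadjusted p under 0.05 at 1 h. Groups of 2 to 6 mice and 15.5 to 18.1 M counts in the 1 h livers limit what could be detected.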
